A study of Mus musculus with 10 samples.

Results

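The genes described here are the Wnt ligands, their receptors and the proteins that modulate or transmit the Wnt signal. They were chosen by name from a table of 54532 mouse genes, 22046 of them protein-coding. All protein-coding genes named Wnt, Fzd, Sfrp, Dkk or Rspo with a number were taken, together with Wls, Lrp5, Lrp6, Axin2, Lef1, Tcf7 and Ctnnb1, which gave 48 genes: 19 Wnt, 10 Fzd, 4 Sfrp, 4 Dkk, 4 Rspo and the 7 named singly. The rule used names only, but it was set with earlier results of these data known. Expression was measured by RNA sequencing of whole spleens from 5 DUSP6 KO mice (Dusp6tm1Jmol, a germline deletion, which the sample labels call a knockdown) and 5 WT mice (C57BL/6J), with 1 library per mouse. All 10 mice were 8 to 12 weeks old and had received 100 µL of KRN serum on days 0 and 2, which transfers arthritis (KRN serum-induced arthritis, KSIA), and spleens were taken at day 9. No group without serum is among the samples, so each comparison is between mice given serum, and arthritis scores of the single mice were not used here. The study lists the DUSP6 KO and WT mice as separate strains bought from a supplier and does not describe them as littermates. Genotype and strain source therefore cannot be told apart. Values are FPKM, fragments counted per kilobase of gene, scaled to the size of the library, so that levels of different genes can be compared.

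Wnt proteins are secreted, lipid-modified signals. They leave the cell with the carrier Wls and bind Frizzled (Fzd) receptors with the co-receptors Lrp5 and Lrp6. In the canonical branch the signal stabilises beta-catenin (Ctnnb1), which then acts with the DNA-binding proteins Tcf7 and Lef1 on target genes such as Axin2. R-spondins (Rspo) amplify the signal at the receptor, whereas Sfrp proteins bind Wnt ligands and Dkk1 blocks the co-receptors. Tcf7 and Lef1 are also well known as transcription factors of T cells.

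The libraries held 14990474 to 19822673 counted fragments. The deleted gene, Dusp6, was at 0.308 to 0.624 FPKM in DUSP6 KO and at 16.6 to 23.98 FPKM in WT. All 10 libraries had the pattern of male mice, with no more than 0.0206 FPKM of Xist and 14.4 FPKM or more of Ddx3y, a Y-linked gene. B cell markers were present in every library, as in spleen (684 to 1746 FPKM summed over 8 genes). Of the markers of other tissues, exocrine pancreas enzymes stood apart in WT replicate 67 (16576 FPKM summed over 10 genes) and WT replicate 65 (204 FPKM), against 9.55 to 26.2 FPKM in the other 8 libraries. Erythroid markers were highest in DUSP6 KO replicate 73 (91195 FPKM summed over 8 genes, against 17679 to 62764 in the others).

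Upstream sequences were looked at for 32 of the 48 genes, those present in the RefSeq promoter table (GRCm38.p6), over the 250 bases before each annotated start site. The letters of a TCF/LEF motif, CTTTGAT on either strand, were found for 2 of the 32 genes, Wnt11 and Wnt5b (6.25%, against 3.72% of 27025 genes with such a window). A second form, CTTTGTT, was found for Dkk1 and Fzd7 (6.25%, against 5.77%). The letters CCGGAAG, an ETS motif, were found for Fzd10 and Tcf7 (6.25%, against 7.83%). No window holds both TCF/LEF forms. Such matches describe the letters only. The stretches around the match are shown for 3 genes to place it, with the match in capitals, on the strand of the gene, where AACAAAG and ATCAAAG are the same motifs read from the opposite strand. The Dkk1 stretch, which overlaps 1 annotated exon, is not shown. None of the 3 shown overlaps an annotated exon. They lie at chr1:59482002-59482038 (plus strand, 130 bases before the Fzd7 start), chr7:98835046-98835082 (plus strand, 51 bases before the Wnt11 start) and chr6:119449436-119449472 (minus strand, 71 bases before an internal Wnt5b start).
Fzd7: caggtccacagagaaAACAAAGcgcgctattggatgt
Wnt11: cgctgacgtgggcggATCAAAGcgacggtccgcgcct
Wnt5b: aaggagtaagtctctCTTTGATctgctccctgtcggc

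The whole window is shown for Wls, the gene with the largest difference below, and for Axin2, the target gene among the members. The Wls window is chr3:159839400-159839649 (plus strand, 58% G or C) and the Axin2 window chr11:108920099-108920348 (plus strand, 69.2% G or C). Neither holds any of the 3 motifs, so no letters are in capitals.
Wls: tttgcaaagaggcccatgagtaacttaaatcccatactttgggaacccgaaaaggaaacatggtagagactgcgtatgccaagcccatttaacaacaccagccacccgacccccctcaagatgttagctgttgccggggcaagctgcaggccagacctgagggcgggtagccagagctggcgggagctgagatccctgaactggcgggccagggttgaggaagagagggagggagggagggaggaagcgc
Axin2: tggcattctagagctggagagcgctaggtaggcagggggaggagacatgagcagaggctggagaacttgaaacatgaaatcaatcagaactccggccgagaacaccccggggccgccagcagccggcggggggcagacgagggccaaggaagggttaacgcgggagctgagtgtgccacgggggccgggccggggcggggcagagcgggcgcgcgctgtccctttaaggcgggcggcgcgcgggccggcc

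Most of the 48 genes had a mean under 1 FPKM in the spleen. A mean of at least 0.1 FPKM over the 10 libraries, the limit for testing, was reached by 34 of the 48. Of all protein-coding genes 14371 of 22046 (65.2%) reached it, a somewhat smaller share. A mean of at least 1 FPKM was reached by 17 members, and the share of all protein-coding genes at that level was not counted. The highest levels were those of the intracellular genes Tcf7 and Ctnnb1, followed by the receptor Fzd1 and the secreted inhibitor Sfrp1. In each family a single gene made up most of the summed FPKM, except among the ligands. Fzd1 accounted for 54.8% of the Fzd sum, Sfrp1 for 96.1% of the Sfrp sum, Rspo1 for 91.2% of the Rspo sum and Dkk3 for 90.5% of the Dkk sum, whereas Wnt5a accounted for 23.0% of the Wnt sum. In bulk RNA of a spleen, fewer cells of a type and less RNA per cell cannot be told apart.

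**Figure D1:**
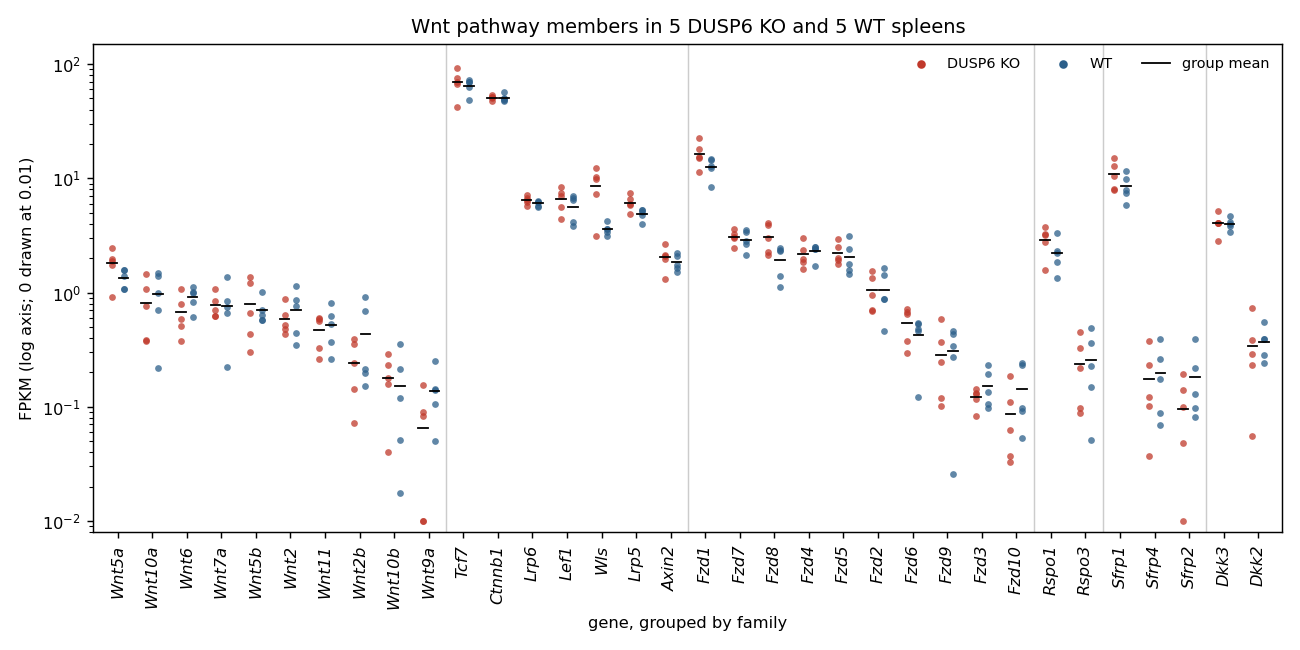
FPKM of the 34 tested genes on a log axis, grouped by family, with 1 point per mouse (red, DUSP6 KO; blue, WT; values of 0 drawn at 0.01) and a line at each group mean. Tcf7, with the highest mean, was at 67.2 FPKM over the 10 libraries, and 4 of the 5 DUSP6 KO points of Wls stand clear of the WT points.

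Gene expression in DUSP6 KO and WT spleens was compared by limma on log2(FPKM + 0.1) over the 21296 genes whose mean reached 0.1 FPKM, and p-values were adjusted over all of them by the Benjamini-Hochberg method. None of the 34 members had an adjusted p of 0.05 or less (0 of 34, against 15 of the 21296 genes, 0.0704%). At an unadjusted p under 0.05, 3 members were higher in DUSP6 KO (2.62% of all genes tested were higher at this threshold) and 0 were lower (3.03%). The 3 genes were Wls, Lrp5 and Fzd8, and together they are 8.82% of the members tested, against 5.66% of all genes in either direction. Leaving out each library in turn gave 1 to 6 higher members, 6 without DUSP6 KO replicate 26 (Wnt5a, Fzd1 and Rspo1 were added) and 1, Wls, without DUSP6 KO replicates 21 or 03 or WT replicates 67 or 73. The groups overlapped for all 34 members. Of all genes tested 1.11% had no overlap, a share so low that 0 of 34 does not set the members apart. For 4 of the 34 members, Wls, Lrp5, Fzd1 and Wnt5a, 4 of the 5 DUSP6 KO spleens exceeded all WT spleens. At least 4 did so for 2.7% of all genes tested. The median log2 fold change was 0.03 over the members and -0.0046 over all genes, and 20 of the 34 members (58.8%, against 49.0% of all genes) were on the higher side in DUSP6 KO. Differences of genes with low values are understated on this scale. The study reported the gene ontology term Wnt-protein binding as enriched, from genes called on these same libraries by another method, DESeq2. The study called far more genes changed than the 15 at the adjusted threshold here, so its term and these counts rest on unlike calls. The genes under its Wnt terms include Wls, Lrp5, Fzd8 and Fzd1, so the direction of these genes there is not independent evidence.

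**Figure D2:**
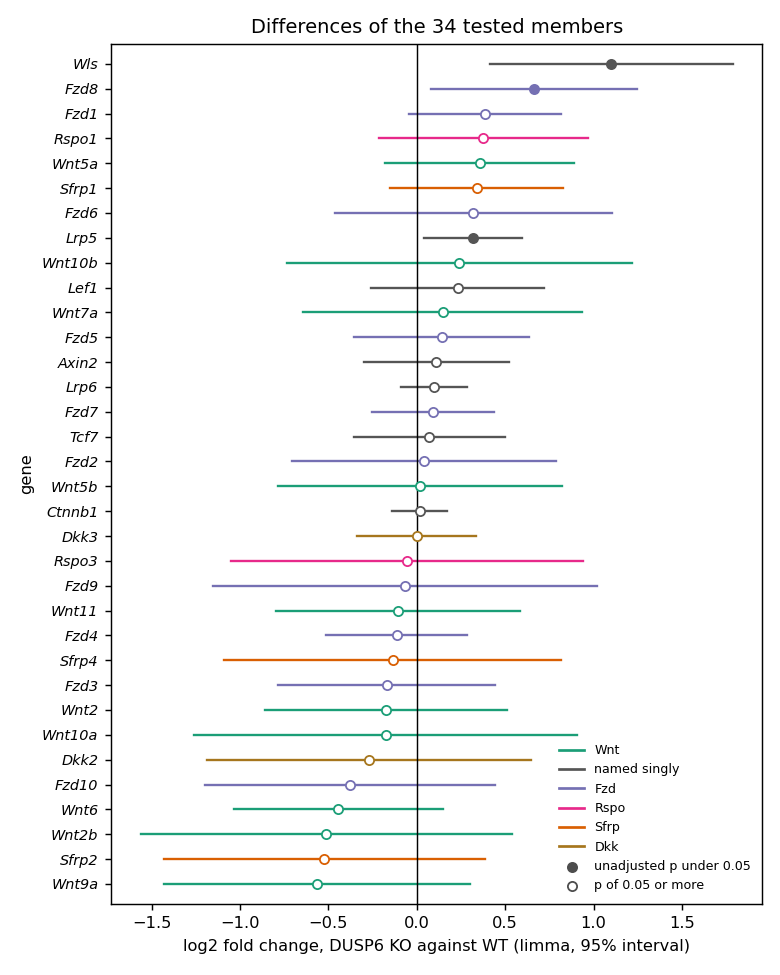
log2 fold change of DUSP6 KO against WT for the 34 tested genes with the 95% interval from limma, coloured by family (filled points, unadjusted p under 0.05). The 3 filled points, Wls, Fzd8 and Lrp5, lie to the right of 0, and the points range from -0.57 for Wnt9a to 1.10 for Wls.

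Among the ligands, no Wnt gene differed between the groups at an unadjusted p under 0.05. Of the 19 Wnt genes 10 were tested, 4 on the higher and 6 on the lower side, with a median log2 fold change of -0.14. Wnt5a, a ligand known for signalling outside the beta-catenin branch, had the highest level. Its FPKM values were 0.918, 2.47, 1.74, 1.97 and 1.90 for DUSP6 KO replicates 26, 21, 73, 01 and 03, and 1.58, 1.078, 1.075, 1.39 and 1.57 for WT replicates 65, 67, 73, 77 and 83. The lowest value of all 10 spleens was thus in DUSP6 KO, and the other 4 DUSP6 KO values exceeded all WT values. The log2 fold change was 0.36 (SE 0.24, limma adjusted p = 0.959; two-sided exact permutation test, p = 0.18). Without DUSP6 KO replicate 26 it was 0.56 (limma unadjusted p = 0.0099), and without DUSP6 KO replicate 21 it was 0.23.

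Below Wnt5a the order of the ligands was loose. Wnt5a was above Wnt10a, the next gene, in 8 of 10 spleens, and each neighbouring pair in the order overlapped over the libraries. Wnt10a, Wnt6, Wnt7a, Wnt5b, Wnt2, Wnt11, Wnt2b, Wnt10b and Wnt9a had differences between -0.57 (Wnt9a) and 0.24 (Wnt10b). Both rested on few fragments, 0 to 14 per library for Wnt9a and 1 to 23 for Wnt10b, and their 95% intervals, -1.43 to 0.30 and -0.74 to 1.22, were wide. Wnt5b, on chromosome 6, overlaps the oppositely oriented gene Fbxl14 over 2963 bases (Fbxl14 mean 25.9 FPKM), and since it is not stated whether counting used the strand, the Wnt5b level is uncertain. Summed over the 19 genes, Wnt expression was 5.07 to 9.17 FPKM in DUSP6 KO (median 5.74) and 6.09 to 7.67 FPKM in WT (median 7.11), so the DUSP6 KO range enclosed that of WT.

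The other 9 Wnt genes were under the limit for testing. Wnt4 and Wnt9b were counted with 35 and 35 fragments over the 5 DUSP6 KO libraries and 33 and 27 over the 5 WT libraries. Wnt3 had 12 and 17, Wnt16 6 and 14, Wnt8b 1 and 9, Wnt7b 2 and 10, Wnt8a 0 and 4, Wnt3a 1 and 2, and Wnt1 1 and 0 fragments in DUSP6 KO and WT. The classical canonical ligands Wnt1 and Wnt3a were thus at or near the detection limit in both groups. In 4 places 2 Wnt genes are neighbours on a chromosome, namely Wnt6 and Wnt10a (chromosome 1, 6.193 kb apart), Wnt3a and Wnt9a (chromosome 11, 16.175 kb), Wnt9b and Wnt3 (chromosome 11, 24.328 kb) and Wnt10b and Wnt1 (chromosome 15, 11.706 kb). In 2 of these pairs, Wnt9a and Wnt10b passed the limit for testing while Wnt3a and Wnt1 beside them were nearly without fragments.

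Wls, the membrane protein that carries Wnt ligands to the cell surface (chr3:159839672-159938664, plus strand), showed the largest difference of all members. Its level was 7.28 FPKM for DUSP6 KO replicate 26, 9.88 for replicate 21, 3.14 for replicate 73, 10.2 for replicate 01 and 12.4 for replicate 03. The WT replicates 65, 67, 73, 77 and 83 had 3.15, 3.35, 3.63, 4.22 and 3.62 FPKM. Expression was higher than in every WT spleen in 4 of the 5 DUSP6 KO spleens, while DUSP6 KO replicate 73 had the lowest value of all 10. The SD was 3.53 FPKM among DUSP6 KO and 0.402 FPKM among WT spleens (n = 5 each), around means of 8.57 and 3.60 FPKM, and 405 to 1936 fragments per library were counted. On the log2 scale the difference was 1.10 (SE 0.31, 95% interval 0.41 to 1.79), a fold of 2.15, with an unadjusted limma p of 0.0048 and an adjusted p of 0.537. The two-sided exact permutation test gave p = 0.048.

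The result for Wls depended on DUSP6 KO replicate 73. Without this spleen the log2 fold change was 1.42 and the adjusted limma p was 0.00655, the only setting in which a member passed the adjusted threshold, and over all 19 alternative settings the adjusted p of Wls ranged from 0.00655 to 0.879. In DUSP6 KO replicate 73 the erythroid markers were the highest and the B cell and T cell markers the lowest of the 10 libraries. Its summed T cell markers were 116 FPKM, against 141 to 235 in the others. DUSP6 KO replicate 26 had the next highest erythroid sum (62764 FPKM), with Wls at 7.28 FPKM, above every WT spleen. The part of these markers in the Wls value was not tested. The annotation places 2 small non-coding or unclassified transcripts within Wls, Gm43307 and Gm23941, with means of 0.141 and 0.369 FPKM.

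**Figure D3:**
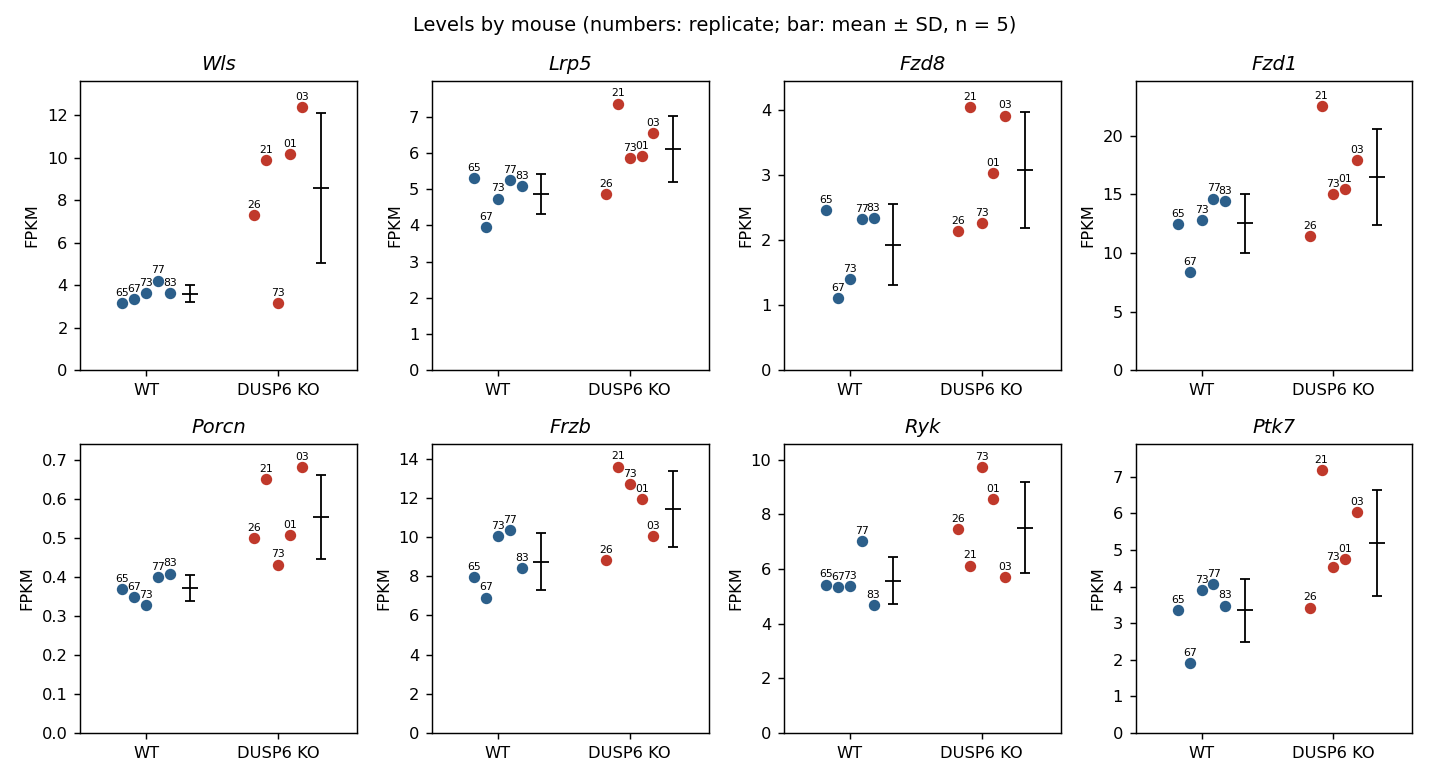
FPKM of Wls, Lrp5, Fzd8 and Fzd1 (upper row) and of 4 other pathway genes, Porcn, Frzb, Ryk and Ptk7 (lower row), with 1 labelled point per mouse and the mean ± SD of the 5 mice per group. DUSP6 KO replicate 73 lies at the low end of the WT points for Wls (3.14 FPKM, just below the lowest WT value of 3.15), DUSP6 KO replicate 21 is the highest for Lrp5, Fzd8 and Fzd1, and the groups do not overlap for Porcn.

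All 10 Frizzled receptor genes were above the limit for testing, 6 on the higher and 4 on the lower side, with a median log2 fold change of 0.07. Fzd1 was above the next receptor, Fzd7, in 10 of 10 spleens without overlap. The following genes, Fzd7, Fzd8, Fzd4 and Fzd5, overlapped with their neighbours over the libraries, and Fzd2, Fzd6, Fzd9, Fzd3 and Fzd10 were lower.

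Fzd8 (chr18:9212856-9216201, plus strand) was the Frizzled gene with the largest difference. The DUSP6 KO spleens, again in the order of replicates 26, 21, 73, 01 and 03, had 2.13, 4.04, 2.26, 3.02 and 3.91 FPKM. The WT spleens, in the order of replicates 65, 67, 73, 77 and 83, had 2.47, 1.11, 1.40, 2.32 and 2.34 FPKM. The 3 highest values were all those of DUSP6 KO spleens, and the other 2 DUSP6 KO spleens lay within the WT range. The log2 fold change was 0.66 (SE 0.26, fold 1.58), with an unadjusted limma p of 0.030 and an adjusted p of 0.799, and the two-sided exact permutation test gave p = 0.079.

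Fzd1 (chr5:4753839-4758035, minus strand) had levels of 11.4, 22.5, 15.01, 15.5 and 17.9 FPKM in the DUSP6 KO replicates and 12.4, 8.35, 12.8, 14.6 and 14.4 FPKM in the WT replicates, in the same order. Except for replicate 26, each DUSP6 KO spleen exceeded all WT spleens. The log2 fold change of 0.38 (SE 0.19) did not pass (limma unadjusted p = 0.075, adjusted p = 0.936; exact permutation p = 0.13). Without DUSP6 KO replicate 26 it was 0.51 (limma unadjusted p = 0.021), and without WT replicate 67 it was 0.25. Summed over the 10 Frizzled genes, expression was 22.6 to 36.9 FPKM in DUSP6 KO and 18.03 to 27.9 FPKM in WT, ranges that overlapped.

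The co-receptor Lrp5 (chr19:3584828-3686564, minus strand) had 4.88, 7.37, 5.85, 5.92 and 6.56 FPKM in the DUSP6 KO replicates and 5.30, 3.95, 4.74, 5.25 and 5.09 FPKM in the WT replicates, in the order used for Fzd8. It was the highest in DUSP6 KO replicate 21 and the lowest in WT replicate 67, and only DUSP6 KO replicate 26 fell within the WT range. The log2 fold change was 0.32 (SE 0.13, fold 1.25), with an unadjusted limma p of 0.028 and an adjusted p of 0.791, and the two-sided exact permutation test gave p = 0.032. Its paralog Lrp6 was at 5.70 to 7.13 FPKM in DUSP6 KO and 5.58 to 6.34 FPKM in WT, with 3 DUSP6 KO spleens above every WT spleen. The Lrp6 difference was 0.10 (95% interval -0.09 to 0.28; limma, Benjamini-Hochberg adjusted p = 0.978), and 0.06 without DUSP6 KO replicate 21.

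The calls of Lrp5 and Fzd8 rested on single libraries. Without WT replicate 67, the spleen with pancreas enzymes, the log2 fold changes were 0.25 for Lrp5 (limma unadjusted p = 0.068) and 0.49 for Fzd8 (unadjusted p = 0.071). Both also missed this threshold without DUSP6 KO replicate 21 (Lrp5 0.25 and Fzd8 0.55), without DUSP6 KO replicate 03 (0.29 and 0.57) and without WT replicate 73 (0.31 and 0.57). Fzd8 missed it without DUSP6 KO replicate 01 as well (0.66). Their direction was the same each time. Wls, in contrast, kept an unadjusted limma p under 0.05 whichever library was left out, with log2 fold changes of 0.94 to 1.42.

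Markers of splenic stroma were mixed. The 14 genes of fibroblasts and reticular cells were all tested. At an unadjusted limma p under 0.05, 4 were higher in DUSP6 KO (Pdgfrb, Dpt, Tcf21 and Tlx1) and 1 was lower (Lum). Of all genes tested, 2.62% were higher and 3.03% lower at this threshold. Of the 14, 0 passed the adjusted threshold. On the higher side were 9 of the 14, and Lum (-1.57), Pdpn (-0.99), Ccl21a (-0.81), Dcn (-0.55) and Col3a1 (-0.07) were on the lower side. Tcf21, a transcription factor of spleen mesenchyme, ranged from 21.4 to 39.5 FPKM in DUSP6 KO and from 13.98 to 21.4 FPKM in WT (log2 fold change 0.67). Tcf21, looked at by mouse after its values were seen, was the highest in DUSP6 KO replicate 21 and the lowest in WT replicate 67, as were Lrp5, Fzd8 and Fzd1. Other markers differed from this, and Lum was the highest of all 10 libraries in WT replicate 67 (1.13 FPKM). The summed level of the 14 genes was 122 to 357 FPKM in DUSP6 KO and 111 to 234 FPKM in WT. In WT the highest sum was that of replicate 67, the spleen with the lowest Lrp5, Fzd8 and Fzd1. The highest sum of all, that of DUSP6 KO replicate 21, included 120 FPKM of Ccl21a and 60.9 FPKM of Ccl19, genes with near-identical copies whose counts are uncertain. Ccl19 was listed at 0 in all 5 WT spleens and none of the other 13 markers was at 0 in any library. The part of stromal markers in the values of Wls, Lrp5, Fzd8 and Fzd1 was not tested.

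**Figure D4:**
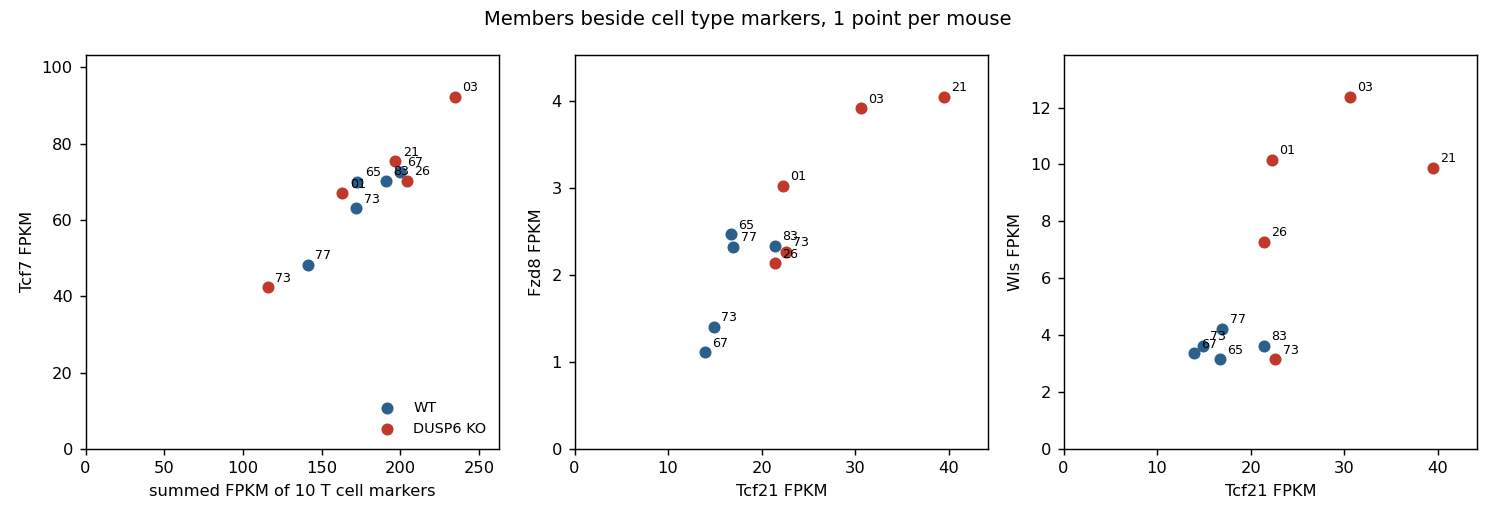
Tcf7 against the summed FPKM of 10 T cell markers, and Fzd8 and Wls against the stromal gene Tcf21 (all axes FPKM), with 1 labelled point per mouse (red, DUSP6 KO; blue, WT). Tcf21 was chosen for the plot after its values were seen. The lowest Tcf7 value and the lowest T cell sum (116 FPKM) are both those of DUSP6 KO replicate 73, and Fzd8 and Tcf21 are both highest in DUSP6 KO replicate 21 and lowest in WT replicate 67. The sum of the 14 stromal markers, not drawn, was also highest in DUSP6 KO replicate 21 (357 FPKM), but among WT spleens it was highest in replicate 67 (234 FPKM).

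R-spondins, which stabilise Wnt receptors at the cell surface, were represented by Rspo1 and Rspo3. Rspo1 levels were 1.58, 2.76, 3.28, 3.17 and 3.73 FPKM for DUSP6 KO replicates 26, 21, 73, 01 and 03, with 2.23, 1.87, 1.35, 3.35 and 2.30 FPKM for WT replicates 65, 67, 73, 77 and 83. The groups overlapped broadly, with 1 DUSP6 KO spleen above every WT spleen. The log2 fold change was 0.38 (SE 0.27, limma adjusted p = 0.963; exact permutation p = 0.24). Without DUSP6 KO replicate 26 it was 0.57 (limma unadjusted p = 0.032), and without WT replicate 73 it was 0.22. Rspo3, the only member on chromosome 10 with Dusp6, lies 69.7 Mb away from it and had a log2 fold change of -0.05 on 3 to 26 fragments per library. Rspo2 and Rspo4 had no fragment in any library, which allows up to 3 fragments, or 0.0271 to 0.0401 FPKM for Rspo2 and 0.0584 to 0.0864 FPKM for Rspo4, counting error only.

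Of the secreted inhibitors, Sfrp1 and Dkk3 were the abundant genes, and neither differed between the groups at an unadjusted p under 0.05. Sfrp1, which binds Wnt ligands outside the cell, had 7.96, 12.9, 8.01, 15.04 and 10.5 FPKM in the DUSP6 KO replicates and 9.77, 5.85, 7.48, 11.7 and 7.94 FPKM in the WT replicates, in the same order. The 2 highest values were those of DUSP6 KO spleens, and the groups overlapped (log2 fold change 0.34, SE 0.22, limma adjusted p = 0.954; exact permutation p = 0.20). The difference was 0.21 without WT replicate 67 and 0.21 without DUSP6 KO replicate 01. Dkk3, a divergent member of its family, ranged from 2.85 to 5.21 FPKM in DUSP6 KO and from 3.36 to 4.71 FPKM in WT, around means of 4.04 and 3.99 FPKM with SDs of 0.832 and 0.491 (n = 5 each). Its 95% interval on the log2 scale was -0.34 to 0.34.

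The other inhibitors among the members were weakly expressed. Sfrp2, Sfrp4 and Dkk2 had log2 fold changes of -0.52, -0.14 and -0.27, and each rested on at most 45 fragments per library. Sfrp5, Dkk1 and Dkk4 were under the limit for testing, with 9, 2 and 7 fragments over the DUSP6 KO libraries and 17, 8 and 5 over the WT libraries. Dkk1, the classical inhibitor of Lrp5 and Lrp6, was thus at or near the detection limit in both groups.

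Inside the cell, Ctnnb1, which encodes beta-catenin, had an even level over the 10 spleens. The FPKM values of DUSP6 KO replicates 26, 21, 73, 01 and 03 were 47.7, 53.5, 51.2, 52.0 and 50.5, and those of WT replicates 65, 67, 73, 77 and 83 were 47.5, 49.1, 48.1, 57.5 and 50.3. The difference was 0.02 on the log2 scale with a 95% interval of -0.14 to 0.17 (limma adjusted p = 0.995). Beta-catenin is regulated mainly as a protein, which these data do not measure.

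Axin2, a negative regulator that is itself a target gene of the pathway (chr11:108920349-108950783, plus strand), had 1.98, 2.64, 1.31, 2.08 and 2.14 FPKM in the DUSP6 KO replicates, and 2.08, 1.65, 1.76, 1.52 and 2.24 FPKM in the WT replicates, in the same order. Both the highest and the lowest value were those of DUSP6 KO spleens. The log2 fold change was 0.11 with a 95% interval of -0.30 to 0.52 (limma adjusted p = 0.993; exact permutation p = 0.60). The value rested on single spleens. It was 0.25 without DUSP6 KO replicate 73, 0.01 without DUSP6 KO replicate 21, 0.05 without WT replicate 77 and 0.18 without WT replicate 83, and in none of these fits was the unadjusted limma p under 0.05.

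The DNA-binding partners Tcf7 and Lef1 varied more between mice than between groups. For Tcf7, the values of DUSP6 KO replicates 26, 21, 73, 01 and 03 were 70.3, 75.4, 42.3, 66.99 and 92.3 FPKM, and those of WT replicates 65, 67, 73, 77 and 83 were 70.05, 72.7, 63.1, 48.2 and 70.3 FPKM. For Lef1 they were 7.48, 7.06, 4.39, 5.65 and 8.37 FPKM and 6.48, 6.74, 4.18, 3.81 and 6.99 FPKM in the same spleens. Both genes were the highest in DUSP6 KO replicate 03, and in WT both were the lowest in replicate 77. The log2 fold changes were 0.07 for Tcf7 (95% interval -0.36 to 0.50, limma adjusted p = 0.993) and 0.23 for Lef1 (95% interval -0.26 to 0.72, adjusted p = 0.978). Without DUSP6 KO replicate 73 they were 0.24 and 0.37. The Tcf7 value was also 0.03 without DUSP6 KO replicate 21, -0.04 without DUSP6 KO replicate 03, 0.11 without WT replicate 67 and -0.03 without WT replicate 77, and the Lef1 value 0.14 without DUSP6 KO replicate 03 or WT replicate 73 and 0.10 without WT replicate 77.

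T cell markers moved with Tcf7. The summed FPKM of 10 T cell markers was 116 to 235 in DUSP6 KO and 141 to 200 in WT. As for Tcf7, it was the lowest in DUSP6 KO replicate 73 and the highest in DUSP6 KO replicate 03, and the lowest WT value was that of replicate 77. Of the 10 markers, 0 had an unadjusted limma p under 0.05 in either direction and 0 an adjusted p of 0.05 or less. The part of T cell content in the values of Tcf7 and Lef1 was not tested.

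A wider list of 83 pathway genes outside the 48 was read from the same fit. Of these, 77 were tested, 4 were higher in DUSP6 KO at an unadjusted limma p under 0.05 (5.19%, against 2.62% of all genes in this direction) and 0 were lower (3.03% of all genes), and 0 passed the adjusted threshold. The median log2 fold change was 0.06, and 49 of the 77 were on the higher side. Leaving out each library in turn gave 1 to 9 higher genes, 9 without DUSP6 KO replicate 26, 1 without DUSP6 KO replicates 21 or 01 or WT replicate 67, and 2 without DUSP6 KO replicate 03 or WT replicates 65 or 73. The 4 genes act at the cell surface, in secretion or outside the cell. Of them 3, Porcn, Frzb and Ryk, are among the genes under the study's Wnt terms, which were called on these same libraries.

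Porcn, the enzyme that attaches the lipid to Wnt proteins, was at 0.432 to 0.683 FPKM in DUSP6 KO and 0.329 to 0.409 FPKM in WT, so the groups did not overlap. Of the 77 genes this held for 2, Porcn on the higher and Dvl1 on the lower side, where 1.11% of all genes tested had no overlap. For Porcn the log2 fold change was 0.46 (SE 0.19), with an unadjusted limma p of 0.037 and an adjusted p of 0.832. The two-sided exact permutation test gave p = 0.0079, the smallest that 5 mice against 5 allow. Porcn and Wls act in successive steps of the making and release of Wnt ligands, but unlike Wls, Porcn was low, with 250 fragments over all 10 libraries. Porcn missed the unadjusted threshold in limma voom on fragment counts and with no filter on low values, and without any of DUSP6 KO replicates 21, 01 and 03 or WT replicates 65, 67 and 73, with log2 fold changes of 0.39 to 0.48 when a spleen was left out.

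Frzb, a secreted Wnt-binding inhibitor, was at 8.82 to 13.6 FPKM in DUSP6 KO and 6.91 to 10.4 FPKM in WT (log2 fold change 0.38, SE 0.15, limma unadjusted p = 0.025, adjusted p = 0.789). Ryk, a receptor for Wnt ligands, was at 5.70 to 9.74 FPKM and 4.68 to 7.02 FPKM (0.41, SE 0.16, limma unadjusted p = 0.027, adjusted p = 0.789). Ptk7, a co-receptor of the polarity branch, was at 3.42 to 7.19 FPKM and 1.92 to 4.08 FPKM (0.62, SE 0.24, limma unadjusted p = 0.026, adjusted p = 0.789). For each of the 3 genes the groups overlapped. Ptk7, like Fzd8, was the highest in DUSP6 KO replicate 21 and the lowest in WT replicate 67, whereas Ryk was the highest in DUSP6 KO replicate 73. Each missed the unadjusted threshold without some library. This held for Frzb without DUSP6 KO replicates 21 (0.31), 73 (0.34) or 01 (0.36) or WT replicates 65 (0.35) or 67 (0.30), for Ryk without DUSP6 KO replicates 73 (0.31) or 01 (0.36) or WT replicates 73 (0.40) or 83 (0.35), and for Ptk7 without DUSP6 KO replicates 21 (0.49) or 03 (0.55) or WT replicate 67 (0.43).

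In the other classes of the wider list no gene differed at an unadjusted limma p under 0.05, which 5.66% of all genes tested did in either direction. This holds for 0 of 16 genes of the destruction complex and its transducers (adjusted p at least 0.904), 0 of 13 nuclear partners, 0 of 16 genes of the polarity and calcium branch and 0 of 12 tested feedback and target genes. Dvl1, a transducer that relays the signal from the receptor and is named here after its values were seen, was lower without overlap, at 7.70 to 9.22 FPKM in DUSP6 KO and 9.38 to 10.01 FPKM in WT (log2 fold change -0.15, SE 0.07, limma unadjusted p = 0.054, adjusted p = 0.904), and its exact permutation p was 0.0079, as for Porcn. In the destruction complex and its transducers the log2 fold changes lay between -0.17 and 0.19, and their summed level was 175 to 187 FPKM in DUSP6 KO and 177 to 187 FPKM in WT. The feedback gene Nkd1 had means of 3.81 ± 1.36 FPKM for DUSP6 KO and 3.12 ± 0.931 FPKM for WT (± SD, n = 5 mice each), and the general target Myc 27.4 ± 3.17 and 26.2 ± 1.80 FPKM. The log2 fold changes of the 12 feedback and target genes ranged from -0.27 (Ccnd1) to 0.32. Notum, Wif1, Sost, Lgr5, Musk and Sp5 were under the limit for testing.

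**Figure D5:**
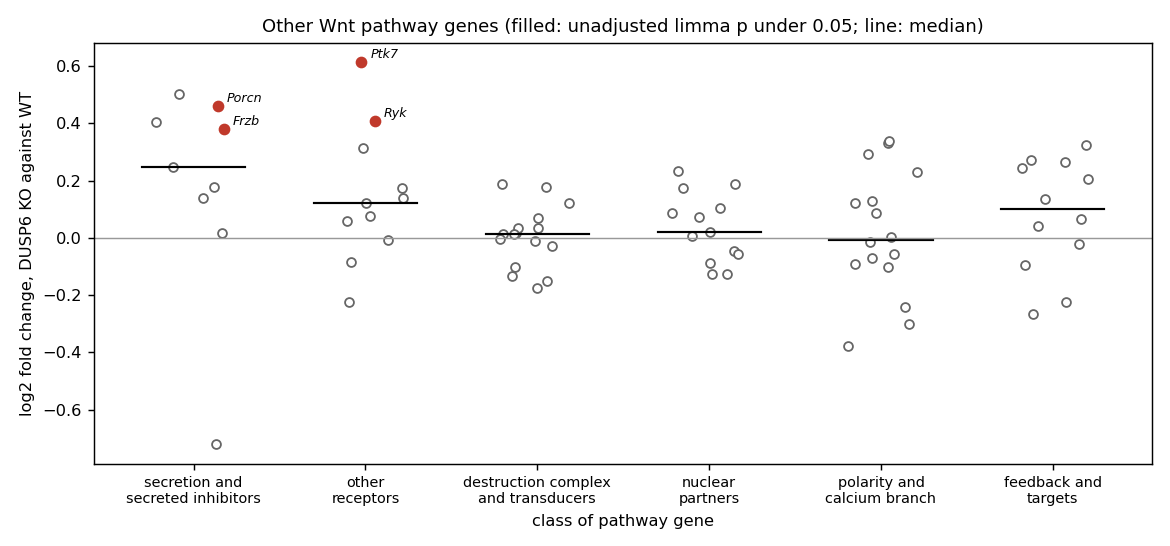
log2 fold change of DUSP6 KO against WT for the 77 tested pathway genes outside the 48, by class, with 1 point per gene and a line at the median (filled, unadjusted limma p under 0.05). The 4 filled points lie in the classes of secretion and secreted inhibitors and of other receptors, and the points of the destruction complex lie between -0.17 and 0.19.

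Markers of some other cell types differed at the unadjusted threshold, and none of them passed the adjusted one. Of 10 neutrophil markers 7 were lower in DUSP6 KO at an unadjusted limma p under 0.05 (3.03% of all genes tested were lower), with a summed level of 586 to 2011 FPKM against 1135 to 5097 FPKM in WT. Of 10 macrophage and monocyte markers, Csf1r, Adgre1 and Marco were higher (2.62% of all genes tested were higher) and Ly6c2 and Ccr2 lower. In smooth muscle cells and pericytes 1 of 8 markers (Notch3), and in endothelium 2 of 10 (Tek and Stab2), were higher. B cell markers had 0 of 8, erythroid markers 0 of 8 and pancreas enzymes 0 of 10 genes past this threshold, and in mesothelium and megakaryocytes 1 of 7 and 2 of 7 tested markers were lower. The part of these cell types in the Wnt pathway values was not tested.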

How the data were processed

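Spleen RNA of 5 DUSP6 KO and 5 WT mice was sequenced by a service provider, 1 poly-A library per mouse, so p-values measure the spread between mice. Per the methods, the authors used Hisat2 to align the paired-end reads and featureCounts 1.5.0-p3 to count them for each gene, and they deposited FPKM values with a gene length. The methods do not name the build, and the submitters' processing notes list hg38, a human build. Coordinates of 98.2% of the 54532 genes, and of 47 of the 48 members, were identical to GENCODE M21 (GRCm38). Whether counting used the strand is not stated.

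FPKM multiplied by length was a whole multiple of a step per library (100% of values within 0.001), which gave the fragment counts and totals quoted. The library sizes implied by the FPKM values, 14652374 to 21666481, differ from these totals, and what they count is not stated. Replicates within a group differed by more than sampling noise (chi-square per gene 13.4 to 151 over 20 pairs). The samples' labels gave groups and replicate numbers.

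Genotype was tested by linear models in limma 3.58.1 (R 4.3.3), with eBayes and a mean-variance trend, using log2(FPKM + 0.1) of the genes whose mean reached 0.1 FPKM, with Benjamini-Hochberg adjustment over all genes tested and a threshold of 0.05. For single genes a two-sided exact permutation test of the 5 against 5 log2 values was added, run with scipy 1.17.1. The limma steps were also run on simulated counts with known changes. Those counts had a fixed spread between mice and no outlying spleen, so that run does not bear on such features of these libraries. Members described in full were those with an unadjusted p under 0.05, the most abundant gene of each family and the 7 named singly, and of the other pathway genes those with an unadjusted p under 0.05. Genes of the marker lists, and other members and pathway genes given with values, were picked for naming with their values in view. The members and lists were chosen with earlier results of these data known. Settings tried beside these included pseudocounts of 1 and 0.01, a filter at a mean of 1 FPKM, no filter, quantile normalization, median centring, limma voom on recovered fragments, eBayes without and with robust trend, and leaving out each library.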

Additional observations from a re-analysis of the deposited data

Results flagged for a closer look

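The values of each of the 17 members with a mean of at least 1 FPKM were examined within each group of 5 mice for a spleen far from the others, 34 groups in all. In 1 of them a spleen stood apart, WT replicate 77 for Ctnnb1, at 57.5 FPKM against 47.5 to 50.3 FPKM in the other 4 WT spleens. Chance flags about 1 in 20 such groups, so 1 among 34 is not unusual. The same spleen had the highest neutrophil markers (5097 FPKM summed over 10 genes) and the lowest T cell markers among the WT spleens, and the part of these in the Ctnnb1 value was not tested.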

How the results depend on the processing

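In all 9 alternatives of scale, filter, normalization or test, Wls, Lrp5 and Fzd8 were the members with an unadjusted limma p under 0.05, and 0 passed the adjusted threshold. The median log2 fold change of the members was below 0 with no filter (-0.02) and above 0 in the other 8, up to 0.14 with a minimum mean of 1 FPKM. Of the other pathway genes, 1 was lower at an unadjusted p under 0.05 with a minimum mean of 1 FPKM, with no filter and with a robust trend, against 0. Dkk3, close to 0, changed sign with a pseudocount of 0.01 (-9.0e-06). Leaving out each library in turn gave 0 to 1 members with an adjusted p of 0.05 or less (1, Wls, without DUSP6 KO replicate 73), 1 to 6 higher at an unadjusted p under 0.05 (6 without DUSP6 KO replicate 26, and 1 without DUSP6 KO replicates 21 or 03 or WT replicates 67 or 73) and 0 to 1 lower (1, Wnt6, without DUSP6 KO replicate 21), with a median of 0.01 to 0.11. For the other pathway genes it gave 1 to 9 higher (9 without DUSP6 KO replicate 26; 1 without DUSP6 KO replicates 21 or 01 or WT replicate 67; 2 without DUSP6 KO replicate 03 or WT replicates 65 or 73) and 0 to 2 lower (2 without DUSP6 KO replicate 21, 1 without DUSP6 KO replicate 03 or WT replicate 65). Signs changed for Ctnnb1 (-0.0047 to 0.064), Dkk3 (-0.095 to 0.12) and Tcf7 (-0.043 to 0.24). The causes were not tested. Members with few fragments per library, such as Wnt9a (0 to 14), have wide counting error beside the spread between mice, and the share of each was not separated. No paired analysis was made because no pairing of the mice is stated. The groups share 1 replicate number, 73, and what the numbers stand for is not stated.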

Other observations

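On chromosome 3, Wls lies 8.08 Mb from Ifi44l and 8.09 Mb from Ifi44, which had adjusted limma p-values of 1.8e-07 and 0.00077 in the same comparison. Ifi44l was at 6.05 to 12.7 FPKM in DUSP6 KO and at most 0.0406 FPKM in WT, and DUSP6 KO replicate 73, the spleen with the lowest Wls, also had the lowest Ifi44l and Ifi44 of the DUSP6 KO group (6.05 and 2.56 FPKM) while remaining above every WT spleen. Of the 5 protein-coding genes tested within 2 Mb of Wls, 0 had an unadjusted limma p under 0.05, the smallest being 0.199. These genes were looked at after the Wls values were seen.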
